A study of Mus musculus with 6 samples.

Results

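Cholesterol and fatty acid synthesis was followed through 32 genes in cultured mouse mammary cell lines, comparing 16IC lines with EIC lines. The genes were taken by symbol from the 23449 genes of the deposited count table, and all 32 were found there. They are 17 enzymes of the sterol branch, 9 enzymes of the fatty acid branch and 6 regulators or transport proteins. The 6 lines comprise 3 labelled 16IC (genotype 16IC/WT) and 3 labelled EIC (genotype EIC/WT), all from female mammary tissue of the FVB/N strain. All 6 were grown with 10 ug/mL doxycycline, in DMEM that held 10% serum and added EGF, insulin and pituitary extract, and no line without doxycycline is among them, so the receptor form and other differences between the lines cannot be told apart. By background knowledge rather than by the labels, doxycycline induces the HER2 splice form without exon 16 in 16IC and full-length ErbB2 in EIC. The lines titled 16IC_1984, 16IC_4982 and 16IC_7391 are called 16IC 1, 2 and 3, and those titled EIC_4026, EIC_NT and EIC_7559 are called EIC 1, 2 and 3. The labels do not say which animals the lines came from, whether a line is a clone, or what NT means.

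The sterol branch joins acetyl-CoA units to mevalonate, builds isoprenoids and squalene from it, and folds and trims squalene to cholesterol. The fatty acid branch carboxylates acetyl-CoA to malonyl-CoA and assembles, lengthens and desaturates fatty acids from it. Both are controlled by SREBP transcription factors, membrane proteins of the endoplasmic reticulum that SCAP escorts to the Golgi for cleavage when sterols are scarce and that INSIG proteins hold back when sterols are plentiful. SREBP-2, from Srebf2, acts mainly on sterol genes, and SREBP-1c, from Srebf1, mainly on fatty acid genes. In the mammary gland both branches serve milk fat, and serum in culture medium supplies cholesterol from outside.

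Library totals ran from 15621563 to 16091846 counts in 16IC and from 16742109 to 17468498 counts in EIC. CPM here is a count divided by the TMM-scaled library size in units of 1000000. The lines of a group were unequal: over the 13698 tested genes, a description since genes are no replicates, Spearman's rho was 0.989 between 16IC 1 and 16IC 2 but 0.874 and 0.880 between these lines and 16IC 3. Within EIC it was 0.979 between EIC 1 and EIC 3, and 0.925 and 0.917 between these lines and EIC 2. Erbb2 had 146, 149 and 102 CPM in 16IC 1 to 3, against 87.0, 67.7 and 79.7 CPM in EIC 1 to 3, and whether transgene reads were counted under it is not given. The epithelial keratin genes Krt8 and Krt18, named after their values were seen, had at least 563 CPM in every 16IC line and at least 661 CPM in every EIC line, whereas Epcam, a surface marker of epithelium, had 1159.6, 1345 and 51.1 CPM in 16IC 1 to 3, against 0.456, 1.08 and 3.79 CPM in EIC 1 to 3. Another gene of the epithelial list, Krt19, also named after its values were seen, went the other way, with 0, 0 and 0.649 CPM in 16IC 1 to 3, against 7.70, 198 and 10.1 CPM in EIC 1 to 3. The 6 basal markers summed to 16.4, 1.59 and 1.88 CPM in 16IC 1 to 3, against 0.570, 11.6 and 0.249 CPM in EIC 1 to 3, with Krt5 at or near 0 in every line. Krt14 reached 13.1 CPM in 16IC 1 and Trp63 reached 11.5 CPM in EIC 2, most of the sum in each of these lines.

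No member passed the adjusted test. Of the 17 sterol genes 16 had positive log2 fold changes of 0.98 or more, with their highest values in 16IC 1 or 16IC 2, though the groups overlapped for 5 of the 16, and the fatty acid branch was mixed. The median log2 fold change (16IC over EIC) was 1.41 over the 17 sterol genes, 0.25 over the 9 fatty acid genes and 0.45 over the 6 regulators, against -0.004 over all 13698 tested genes. The 16IC values all exceeded every EIC value for 11 sterol genes, 3 fatty acid genes and 2 regulators, as for 17.2% of all tested genes. No member had all 16IC lines below all EIC lines, whereas 14.2% of tested genes did. With edgeR's quasi-likelihood test and Benjamini-Hochberg adjustment over all tested genes, 0 of the 32 members passed an adjusted p of 0.05, where 2.45% of tested genes did. At an unadjusted p under 0.05 there were 21 members higher in 16IC, of which 16 were sterol genes, 3 fatty acid genes and 2 regulators, where 12.6% of tested genes were. There was 1 member lower at that level, Scd1, where 10.1% of tested genes were. The smallest adjusted p among members was 0.0662, for Fdps.

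**Figure D1:**
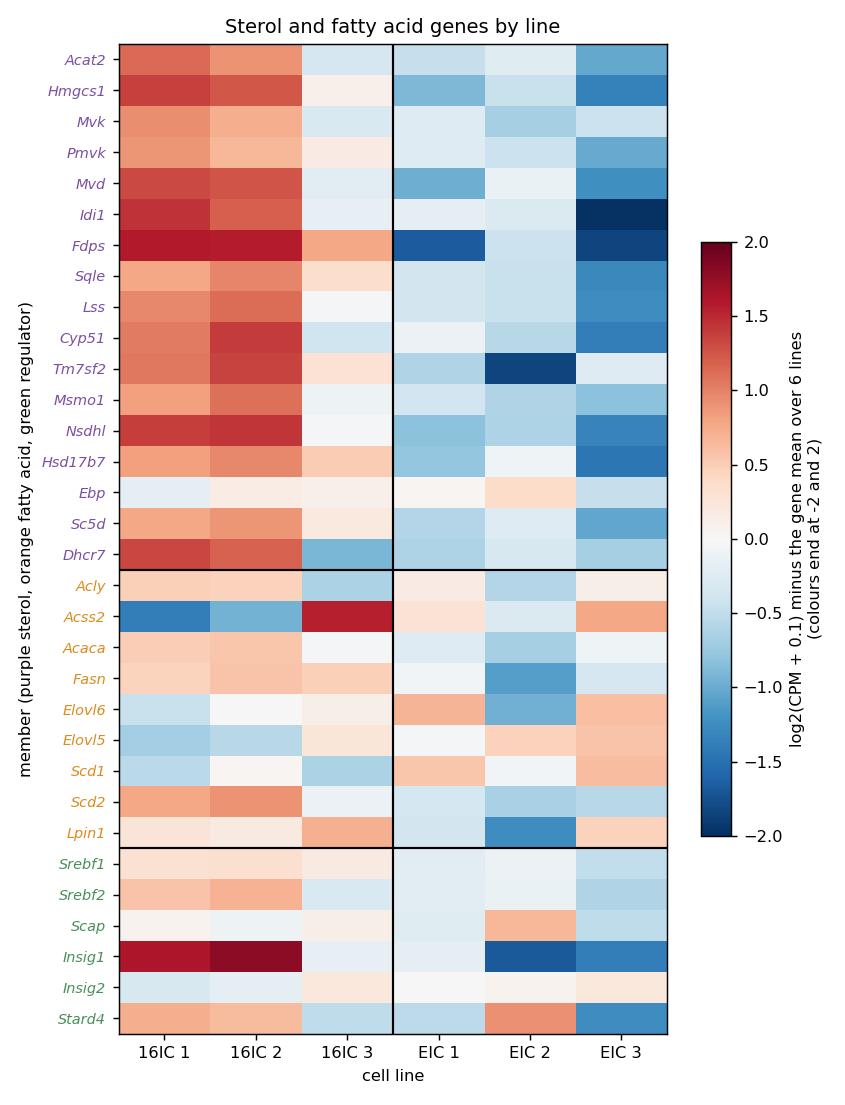
Heat map of the 32 members (rows, in path order) in the 6 lines (columns, 16IC left of EIC), coloured by log2(CPM + 0.1) minus the mean of that gene over the 6 lines, with colours ending at -2 and 2. Apart from Ebp, the sterol rows are red in 16IC 1 and 16IC 2, mostly pale in 16IC 3 and mostly blue in EIC, deepest for most genes in EIC 3. The fatty acid rows follow no common order.

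The promoters of 4 members are printed so that genes of each role can be set side by side: Hmgcs1 and Nsdhl from the sterol branch, Insig1 from the regulators and Fasn from the fatty acid branch. They are RefSeq sequences of build GRCm38.p6, 250 bases before an annotated start to 50 after it, read 5′ to 3′ along the gene. That start can differ from the gene start given elsewhere in the text. The windows lie at chr13:119690101-119690400 on the plus strand for Hmgcs1, chrX:72918271-72918570 on the plus strand for Nsdhl, chr5:28071162-28071461 on the plus strand for Insig1 and chr11:120824498-120824797 on the minus strand for Fasn. Capitals mark TCACNCCAC, a form of the sterol regulatory element, CCAAT, the box that NF-Y binds, and the E-box CACGTG, each on either strand, so that a CCAAT box on the other strand reads ATTGG.
Hmgcs1: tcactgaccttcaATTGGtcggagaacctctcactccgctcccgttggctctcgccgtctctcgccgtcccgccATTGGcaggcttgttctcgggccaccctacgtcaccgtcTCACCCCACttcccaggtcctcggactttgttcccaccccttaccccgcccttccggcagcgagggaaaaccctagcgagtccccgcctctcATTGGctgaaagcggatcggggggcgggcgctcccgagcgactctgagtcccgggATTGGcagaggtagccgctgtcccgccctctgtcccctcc
Nsdhl: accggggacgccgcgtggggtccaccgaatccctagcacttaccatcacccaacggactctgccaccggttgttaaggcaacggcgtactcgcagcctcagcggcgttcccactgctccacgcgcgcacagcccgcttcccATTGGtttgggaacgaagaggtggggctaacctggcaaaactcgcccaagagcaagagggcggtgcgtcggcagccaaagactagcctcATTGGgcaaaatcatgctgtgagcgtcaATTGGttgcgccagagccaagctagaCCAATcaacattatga
Insig1: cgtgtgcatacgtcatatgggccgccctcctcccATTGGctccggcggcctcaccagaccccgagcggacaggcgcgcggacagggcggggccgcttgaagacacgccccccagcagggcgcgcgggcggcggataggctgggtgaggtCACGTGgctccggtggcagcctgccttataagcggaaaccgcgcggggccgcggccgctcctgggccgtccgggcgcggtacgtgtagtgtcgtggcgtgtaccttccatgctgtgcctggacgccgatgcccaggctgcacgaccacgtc
Fasn: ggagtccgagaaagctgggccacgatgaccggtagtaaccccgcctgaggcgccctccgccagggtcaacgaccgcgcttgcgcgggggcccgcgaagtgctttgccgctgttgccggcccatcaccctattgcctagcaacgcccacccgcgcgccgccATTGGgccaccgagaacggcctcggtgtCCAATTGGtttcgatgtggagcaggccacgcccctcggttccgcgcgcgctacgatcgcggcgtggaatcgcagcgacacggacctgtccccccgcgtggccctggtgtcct

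Promoters were matched for 27 of the 32 members, in 35 windows of 300 bases, of which 18 belong to sterol genes, 7 to fatty acid genes and 10 to regulators. Windows on chromosome 18, where Stard4 lies, were left out for members but kept among all promoter windows. TCACNCCAC occurred in 1 of the 35 windows, that of Hmgcs1, which is 5.56% of the sterol windows, against 1.24% of all 32851 promoter windows. CCAAT occurred in 77.8% of the sterol windows, 57.1% of the fatty acid windows and 50% of the regulator windows, against 37.4% of all windows. CACGTG occurred in 16.7%, 14.3% and 30.0% of these 3 kinds of window, against 7.15% of all windows. The GC box GGGCGG, which Sp1 binds and which is not marked above, occurred in 83.3%, 28.6% and 80.0% of them, against 35.7% of all windows. Several members have more than 1 window, so windows are not separate genes. The windows of the regulator Scap overlap, and 1 E-box and 1 GC box of Scap were counted in both. Each motif was searched on its own on both strands, overlaps between motifs were kept, and base composition was not matched. A match of letters is not a site that was shown to be bound.

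The 7 genes of the mevalonate segment all had positive log2 fold changes, with a median of 1.61. Hmgcs1 (ENSMUSG00000093930, chromosome 13, 119690379 to 119708260 on mm10), whose enzyme makes HMG-CoA, had 178, 164 and 73.9 CPM in 16IC 1 to 3, against 37.1, 50.6 and 27.1 CPM in EIC 1 to 3. Every 16IC line was above every EIC line, and 16IC 3 was the lowest of its group. The group means were 139 ± 56.5 CPM for 16IC and 38.3 ± 11.8 CPM for EIC (SD, n = 3 each; log2 fold change 1.86, SE 0.41, edgeR adjusted p = 0.0700). Acat2, whose enzyme joins acetyl-CoA units in the cytosol, had 86.4, 73.4 and 31.2 CPM in 16IC 1 to 3, against 28.5, 33.2 and 19.3 CPM in EIC 1 to 3, so that 16IC 3 lay among the EIC values. The kinase genes Mvk and Pmvk add phosphates to mevalonate in turn. Mvk had 56.0, 48.9 and 23.9 CPM in 16IC 1 to 3, against 24.7, 18.6 and 21.9 CPM in EIC 1 to 3. Pmvk had 25.2, 21.6 and 15.4 CPM in 16IC 1 to 3, against 11.3, 10.0 and 6.71 CPM in EIC 1 to 3. The groups overlapped for Mvk, where 16IC 3 was below EIC 1, and did not overlap for Pmvk.

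Mvd, which makes isopentenyl diphosphate by decarboxylation, had 42.5, 40.9 and 14.5 CPM in 16IC 1 to 3, against 8.56, 15.5 and 7.21 CPM in EIC 1 to 3. Its 16IC 3 value lay below that of EIC 2. Idi1, which interconverts the isoprene units, had 69.8, 58.8 and 22.8 CPM in 16IC 1 to 3, against 22.3, 20.9 and 6.40 CPM in EIC 1 to 3, with 16IC 3 barely above EIC 1. Fdps, which joins isoprene units to farnesyl diphosphate, had 11.6, 11.6 and 6.62 CPM in 16IC 1 to 3, against 1.14, 2.83 and 0.995 CPM in EIC 1 to 3 (log2 fold change 2.58, SE 0.54, edgeR adjusted p = 0.0662). Its fold change was the largest of the 32 members, and its counts were the lowest of the sterol branch. Sequence shared with other genes limits several of these values, since the treatment of reads with more than 1 match is not given. Of all 50-base stretches of the longest coding transcript in GENCODE M21, 86.4% for Fdps, 45.9% for Acat2 and 30.5% for Idi1 also occur in transcripts of other genes, most often the gene model Gm43738, Acat3 and the processed pseudogene Gm13502. For Hmgcs1 the share was 13.6%, all of it with an antisense gene that had at most 13 counts in a line. Mvk, Pmvk and Mvd shared none. Acat3 had at most 19 counts in a line and Gm13502 at most 15, while Gm43738 was not among the deposited genes.

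The 10 genes after squalene had a median log2 fold change of 1.39. In 7 of them every 16IC line lay above every EIC line, as in 17.2% of all tested genes. Sqle, the epoxidase that commits squalene to sterols, had 289, 329.6 and 214 CPM in 16IC 1 to 3, against 131, 124 and 68.9 CPM in EIC 1 to 3. All 3 16IC values were above the highest EIC value (log2 fold change 1.36, SE 0.31, edgeR adjusted p = 0.0748). Lss, which closes the rings to lanosterol, had 125, 139 and 62.5 CPM in 16IC 1 to 3, against 49.7, 46.7 and 26.8 CPM in EIC 1 to 3, again without overlap. Nsdhl, which removes carbon at the fourth position of the sterol nucleus, had 104, 108 and 39.1 CPM in 16IC 1 to 3, against 22.6, 25.9 and 15.8 CPM in EIC 1 to 3 (log2 fold change 1.96, SE 0.43, edgeR adjusted p = 0.0719). In Nsdhl 16IC 3 was closer to the EIC lines than to the other 16IC lines. Msmo1, the oxidase that works with it, had 241, 293 and 128 CPM in 16IC 1 to 3, against 105, 89.6 and 77.0 CPM in EIC 1 to 3. Hsd17b7, the reductase of the same step, had 62.0, 68.0 and 49.8 CPM in 16IC 1 to 3, against 20.4, 33.0 and 12.8 CPM in EIC 1 to 3. Neither gene had overlapping groups, and Hsd17b7 was among the sterol genes in which 16IC 3 kept nearest to its group, at 0.767 times the mean of 16IC 1 and 16IC 2.

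Sc5d, the desaturase near the end of the path, had 138, 149 and 92.6 CPM in 16IC 1 to 3, against 53.6, 67.5 and 39.3 CPM in EIC 1 to 3, and Tm7sf2, a sterol reductase gene, had 24.6, 30.5 and 14.5 CPM in 16IC 1 to 3, against 7.81, 3.25 and 9.89 CPM in EIC 1 to 3. Both had every 16IC line above every EIC line. Cyp51, the demethylase that acts on lanosterol, had 258, 329.8 and 95.1 CPM in 16IC 1 to 3, against 116, 85.2 and 47.9 CPM in EIC 1 to 3, with 16IC 3 below EIC 1. Dhcr7, a reductase late in the path, had 344, 311 and 72.6 CPM in 16IC 1 to 3, against 89.4, 109 and 86.4 CPM in EIC 1 to 3. In Dhcr7 the line 16IC 3 was the lowest of all 6 lines, at 0.222 times the mean of 16IC 1 and 16IC 2. Ebp, the sterol isomerase, departed from the rest of the branch, with 50.7, 64.2 and 62.0 CPM in 16IC 1 to 3, against 59.3, 74.9 and 42.3 CPM in EIC 1 to 3. Its group means were 59.0 ± 7.26 CPM for 16IC and 58.8 ± 16.3 CPM for EIC (SD, n = 3 each), and its log2 fold change was 0.00 (SE 0.25).

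**Figure D2:**
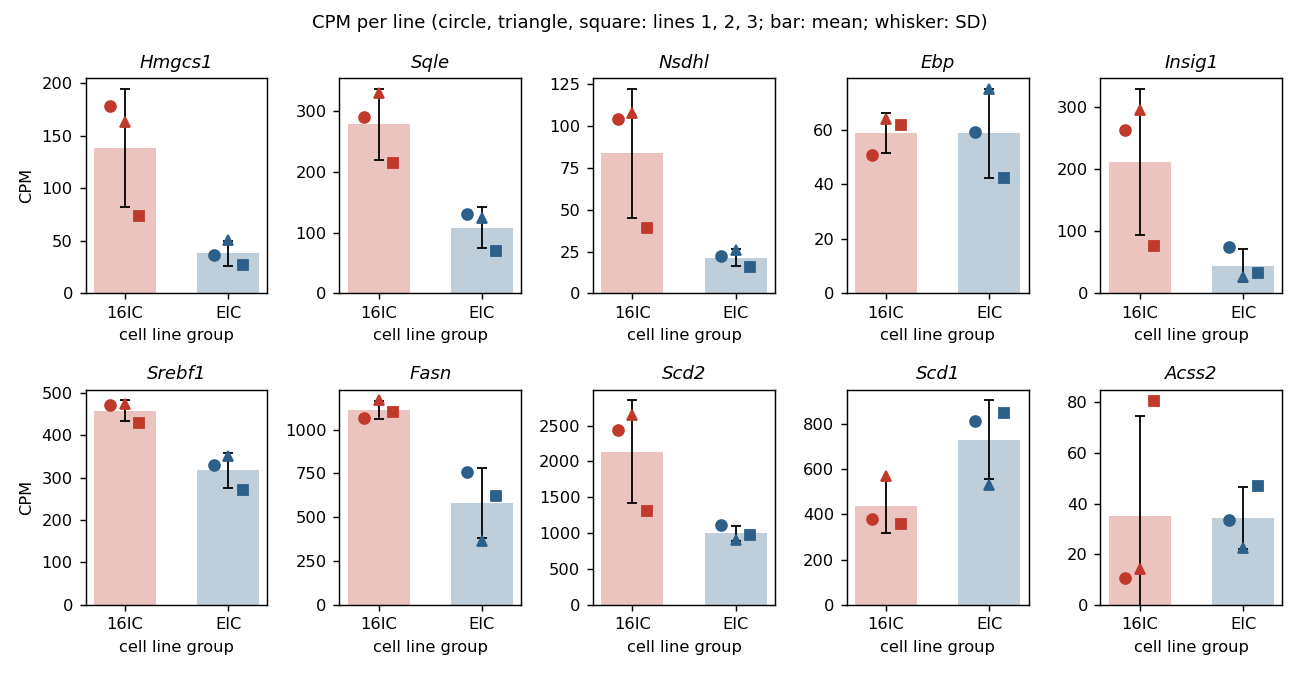
CPM of 10 members in each line, 16IC (red) left of EIC (blue); points are lines 1 (circle), 2 (triangle) and 3 (square), bars the group mean and whiskers the SD over 3 lines. Hmgcs1, Sqle, Nsdhl, Insig1, Srebf1, Fasn and Scd2 have no overlap between groups, Ebp, Scd1 and Acss2 do, and the highest Acss2 value is that of 16IC 3 at 80.8 CPM, whose group whisker is clipped at 0.

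Among the regulators, Insig1 showed the widest difference and its relative Insig2 almost none. Insig1 (ENSMUSG00000045294, chromosome 5, 28071363 to 28078662), an SREBP target whose protein retains SCAP in the endoplasmic reticulum, had 263, 296 and 76.7 CPM in 16IC 1 to 3, against 75.2, 26.6 and 32.6 CPM in EIC 1 to 3. The groups did not overlap, but 16IC 3 was within 2 CPM of EIC 1 (log2 fold change 2.24, SE 0.63, edgeR adjusted p = 0.112). Insig2, which does the same work and is less dependent on SREBP, had 73.2, 81.3 and 106 CPM in 16IC 1 to 3, against 91.9, 96.8 and 106 CPM in EIC 1 to 3. By the deposited FPKM, which are per gene length, Insig1 stood at 4.03, 4.09 and 0.810 times Insig2 in 16IC 1 to 3, against 0.918, 0.309 and 0.346 times in EIC 1 to 3. Insig1 thus exceeded Insig2 in 16IC 1 and 16IC 2 and lay below it in the other 4 lines.

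The factor gene Srebf1 had 472, 474 and 429.5 CPM in 16IC 1 to 3, against 329, 352 and 271 CPM in EIC 1 to 3, with no overlap (log2 fold change 0.53, SE 0.18, edgeR adjusted p = 0.161). Srebf2 had 456, 499 and 248 CPM in 16IC 1 to 3, against 263, 282 and 202 CPM in EIC 1 to 3, and 16IC 3 lay among the EIC lines (log2 fold change 0.69, SE 0.31, edgeR adjusted p = 0.254). Scap, the escort, had 112, 99.8 and 116 CPM in 16IC 1 to 3, against 91.0, 169 and 75.7 CPM in EIC 1 to 3, where the highest line was EIC 2. Stard4, whose protein carries cholesterol between membranes, had 60.8, 57.0 and 25.8 CPM in 16IC 1 to 3, against 25.7, 69.4 and 15.5 CPM in EIC 1 to 3, and its highest line was also EIC 2. For Scap and Stard4 the groups overlapped (log2 fold changes -0.03 and 0.38, edgeR adjusted p = 0.961 and 0.758). The SREBPs are activated by cleavage, which messenger RNA does not measure.

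Of the 9 genes of the fatty acid branch 3 had no overlap between groups, Fasn, Acaca and Scd2, all higher in 16IC. Of all tested genes 17.2% had every 16IC line above every EIC line, and 14.2% had every 16IC line below. Another 3 genes of the branch had negative log2 fold changes, Scd1, Elovl5 and Elovl6. Fasn, the synthase that assembles palmitate (ENSMUSG00000025153, chromosome 11, 120805846 to 120824547), had 1069, 1169 and 1099 CPM in 16IC 1 to 3, against 759, 365 and 619.6 CPM in EIC 1 to 3. The 16IC lines lay close together and 16IC 3 was not set apart, in contrast to most sterol genes (log2 fold change 0.94, SE 0.31, edgeR adjusted p = 0.145). Acaca, which makes malonyl-CoA, had 212, 221 and 148 CPM in 16IC 1 to 3, against 125, 95.1 and 141 CPM in EIC 1 to 3 (log2 fold change 0.68, SE 0.24, edgeR adjusted p = 0.165). Of its 50-base stretches 52.6% also occur in a processed pseudogene, Gm5182, so that reads could be split between them. Gm5182 had 567, 533 and 495 counts in 16IC 1 to 3, against 335, 290 and 366 counts in EIC 1 to 3. Acly, which makes acetyl-CoA from citrate for both branches, had 465, 459 and 217 CPM in 16IC 1 to 3, against 374, 224 and 363 CPM in EIC 1 to 3, and the groups overlapped. Acss2, which makes acetyl-CoA from acetate, had 10.4, 14.3 and 80.8 CPM in 16IC 1 to 3, against 33.5, 22.5 and 47.1 CPM in EIC 1 to 3. Its lowest values were in 16IC 1 and 16IC 2 and its highest was in 16IC 3, at 6.54 times their mean.

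The stearoyl-CoA desaturases, which place the double bond in oleate, pointed in opposite directions. Scd2 (ENSMUSG00000025203, chromosome 19, 44293676 to 44306864) had 2443, 2650.3 and 1311 CPM in 16IC 1 to 3, against 1111, 905 and 969 CPM in EIC 1 to 3 (log2 fold change 1.10, SE 0.33, edgeR adjusted p = 0.124). Scd1 (ENSMUSG00000037071, chromosome 19, 44394451 to 44407709) had 381, 569 and 356 CPM in 16IC 1 to 3, against 812, 529 and 849.8 CPM in EIC 1 to 3 (log2 fold change -0.75, SE 0.30, edgeR adjusted p = 0.204). Scd2 had no overlap between groups, whereas 16IC 2 exceeded EIC 2 for Scd1. On the FPKM scale Scd2 was 5.69, 4.13 and 3.27 times Scd1 in 16IC 1 to 3, against 1.21, 1.52 and 1.01 times in EIC 1 to 3, a ratio of these members that was looked at after their values were seen. The neighbours share little sequence: 4.66% of the 50-base stretches of Scd1 and 4.01% of those of Scd2 occur in another gene.

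The elongase gene Elovl6, which lengthens palmitate, had 68.5, 93.1 and 101 CPM in 16IC 1 to 3, against 148, 47.6 and 142 CPM in EIC 1 to 3. Its EIC values spread widely, with EIC 2 the lowest of all lines. Elovl5, an elongase of polyunsaturated fatty acids, had 129.6, 141 and 248 CPM in 16IC 1 to 3, against 204, 286 and 309 CPM in EIC 1 to 3, with 16IC 3 between EIC 1 and EIC 2. Lpin1, a phosphatidate phosphatase that leads fatty acids to glycerolipids, had 41.6, 39.4 and 56.8 CPM in 16IC 1 to 3, against 26.7, 14.6 and 48.1 CPM in EIC 1 to 3. The log2 fold changes were -0.36 for Elovl6, -0.62 for Elovl5 and 0.62 for Lpin1 (edgeR adjusted p = 0.674, 0.300 and 0.456). Single lines weighed on these values: Elovl6 was -0.74 without EIC 2 and -0.13 without EIC 1, Elovl5 was -0.98 without 16IC 3, and Lpin1 was 1.14 without EIC 3 and 0.29 without EIC 2.

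Set against each other within a line, the branches parted most in opposite ways in 16IC 2 and EIC 3. The level of a branch in a line was the median over its genes of log2 CPM, each gene centred on its mean over the 6 lines. The sterol level was 1.05, 1.12 and -0.03 in 16IC 1 to 3, against -0.46, -0.44 and -1.23 in EIC 1 to 3. The fatty acid level was 0.26, 0.18 and 0.12 in 16IC 1 to 3, against -0.03, -0.65 and 0.47 in EIC 1 to 3. So each 16IC line exceeded each EIC line for the sterol branch, and for the fatty acid branch EIC 3 was the highest line of all. The sterol level minus the fatty acid level was 0.78, 0.94 and -0.15 in 16IC 1 to 3, against -0.43, 0.22 and -1.69 in EIC 1 to 3. Its mean was 0.52 ± 0.59 in 16IC and -0.64 ± 0.97 in EIC (SD, n = 3 each), and 16IC 3 lay below EIC 2, so the groups overlapped. These levels carry no test, because the members were chosen with results known. In summed CPM the sterol branch held 2107, 2241 and 1018 in 16IC 1 to 3, against 788, 810.5 and 517 in EIC 1 to 3. The fatty acid branch held 4820.0, 5356 and 3618 CPM in 16IC 1 to 3, against 3594, 2489 and 3489 CPM in EIC 1 to 3, most of it from Scd2, Fasn and Scd1.

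**Figure D3:**
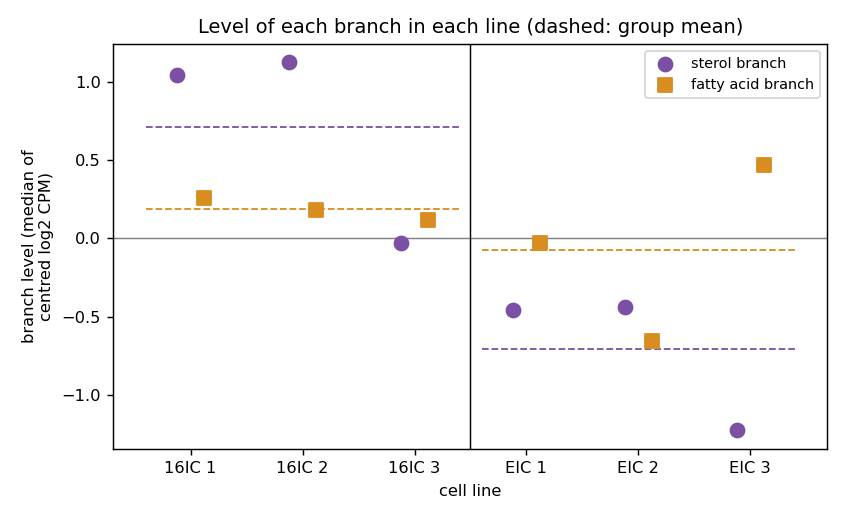
Level of the sterol branch (purple circles) and of the fatty acid branch (orange squares) in each line, as the median over the branch of log2 CPM centred per gene, with dashed group means; 16IC is left of EIC. The sterol level is highest at 1.12 in 16IC 2 and lowest at -1.23 in EIC 3, and the fatty acid level lies between -0.65 and 0.47, both in EIC lines.

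The line 16IC 3 was the lowest of the 16IC lines in 16 of 17 sterol genes, in 4 of 9 fatty acid genes and in 44.7% of all tested genes. The median ratio of 16IC 3 to the mean of 16IC 1 and 16IC 2 was 0.473 over the sterol branch and 0.982 over the fatty acid branch, against 0.989 over all tested genes. It still lay above every EIC line in 11 sterol genes and 5 fatty acid genes, as it did in 35.4% of tested genes. Both 16IC 1 and 16IC 2 lay above every EIC line in 16 sterol genes and 4 fatty acid genes, as they did in 26.3% of tested genes. Ebp is the sterol gene missing from that count. On the other side EIC 3 was the lowest of all 6 lines in 14 of 17 sterol genes and in 0 of 9 fatty acid genes, against 16.2% of all tested genes.

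The outcome of the test turned on 16IC 3. Without that line the 16IC group held only 16IC 1 and 16IC 2, the most alike pair (Spearman's rho 0.989). The counts do not show whether these lines are independent, so the spread behind the following calls may be too small. In that fit edgeR's quasi-likelihood test called 13 of 17 sterol genes, all higher in 16IC. Of all tested genes it called 6.60% higher and 6.82% lower. It also called Scd2, Insig1 and Srebf2 higher and Elovl5 lower. The largest such values were log2 fold changes of 2.80 (SE 0.54, edgeR adjusted p = 0.0323) for Fdps and 2.64 (SE 0.47, edgeR adjusted p = 0.0275) for Insig1, and the smallest adjusted p were those of Dhcr7, with 1.78 (SE 0.17, edgeR adjusted p = 0.00767), and Nsdhl, with 2.30 (SE 0.24, edgeR adjusted p = 0.00958). The sterol genes not called then were Idi1, Tm7sf2, Hsd17b7 and Ebp. Without EIC 2 the test called Fdps alone, where 1.96% of tested genes were called. Without 16IC 1, 16IC 2, EIC 1 or EIC 3 it called 0 members. Of all tested genes it called 5 without 16IC 1 and 0 without each of the others, so these counts are not particular to the members. With all 6 lines limma-voom called 0 members, where it called 2.10% of tested genes, and 21 members had an unadjusted p under 0.05, where 23.1% of tested genes did. With 16IC 1 and 16IC 2, the most alike pair, averaged to 1 sample, edgeR called 0 members and 11 had an unadjusted p under 0.05. In that fit it called 0 of all tested genes, and 2257 had an unadjusted p under 0.05. The count of 0 is thus not particular to the members. DESeq2 called 13 with all 6 lines, all higher in 16IC, where 6.89% of the genes with an adjusted p were called higher and 5.94% lower. These were Hmgcs1, Pmvk, Mvd, Fdps, Sqle, Lss, Tm7sf2, Msmo1, Nsdhl, Hsd17b7, Sc5d, Scd2 and Insig1. The authors' deposited table also has 13 members at an adjusted p under 0.05, 11 of them in the sterol branch and all higher in 16IC. Of its genes 4.65% are higher at that level. This share is over all 23449 genes, so it is not on the same base as the DESeq2 share.

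**Figure D4:**
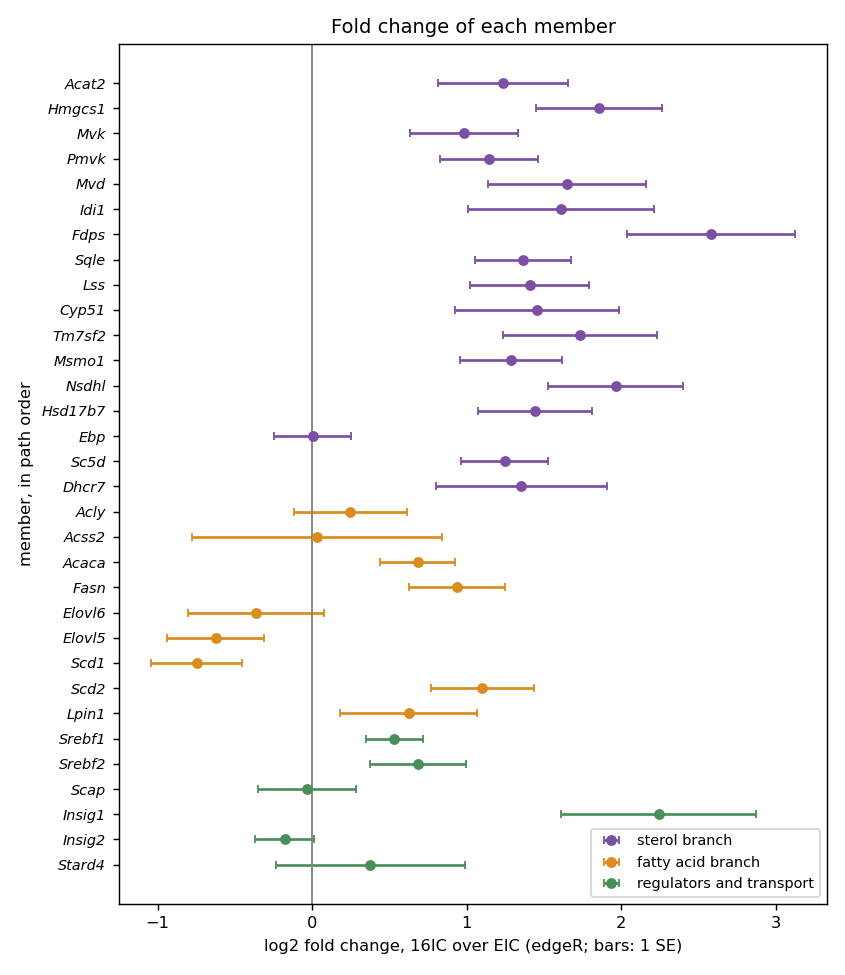
Log2 fold change of each member, 16IC over EIC, from the edgeR fit over all 6 lines (points; bars are 1 SE), in path order from top to bottom and coloured by branch. Of the sterol genes, 16 lie between 0.98 and 2.58 and Ebp lies at 0, while the fatty acid genes lie between -0.75 and 1.10.

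Per gene length, the members spanned a wide range in both groups. On the deposited FPKM scale Scd2 was the highest, with 384 ± 126 in 16IC and 177 ± 20.4 in EIC, and Fdps the lowest, with 2.32 ± 0.649 in 16IC and 0.377 ± 0.223 in EIC (SD, n = 3 each). Since 86.4% of the 50-base stretches of Fdps also occur in other genes, its rank may not reflect its abundance. Fasn had rank 2 in 16IC with 99.9 ± 3.96 FPKM and rank 6 in EIC with 51.6 ± 18.3 FPKM. Scd1 had rank 3 in 16IC with 88.3 ± 22.6 FPKM and rank 2 in EIC with 147 ± 38.3 FPKM. Insig1 had rank 6 in 16IC with 67.0 ± 37.0 FPKM, against rank 16 in EIC with 14.1 ± 8.31 FPKM. In the sterol branch Cyp51 and Sqle were the most abundant in 16IC, with 50.5 ± 26.2 and 49.1 ± 9.80 FPKM, and in EIC Ebp was, with 24.6 ± 6.22 FPKM. Cyp51 and Sqle differed by less than the SD of either.

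Of 55 further genes of sterol and prenyl synthesis, uptake, efflux, SREBP processing and fatty acid handling, 53 were tested, with a median log2 fold change of -0.07. With edgeR's quasi-likelihood test 0 were called higher and 1 lower in 16IC, with 8 higher and 7 lower at an unadjusted p under 0.05. These are 1.89%, 15.1% and 13.2% of the 53, near the 2.45%, 12.6% and 10.1% of all tested genes. The 1 called was Cpt1a, which admits fatty acids to mitochondria for oxidation. It had 38.7, 49.5 and 44.0 CPM in 16IC 1 to 3, against 164, 112 and 158 CPM in EIC 1 to 3 (log2 fold change -1.71, SE 0.21, edgeR adjusted p = 0.0360). Here the groups did not overlap and 16IC 3 lay between the other 16IC lines. Leaving out 16IC 1, 16IC 2, EIC 1 or EIC 3 ended the call, as did averaging 16IC 1 with 16IC 2, with 0 of these genes called each time. Of all tested genes only 5 were called without 16IC 1 and 0 in each of the other settings. The loss of the call was thus not particular to Cpt1a. Erlin1 and Erlin2 encode partner proteins of the endoplasmic reticulum that take part in the sterol-regulated degradation of membrane enzymes, and they differed in opposite directions. Erlin1 had 35.7, 38.2 and 31.0 CPM in 16IC 1 to 3, against 106, 68.1 and 73.7 CPM in EIC 1 to 3 (log2 fold change -1.24, SE 0.23, edgeR adjusted p = 0.0513). Erlin2 had 195, 227 and 129 CPM in 16IC 1 to 3, against 84.4, 85.6 and 82.1 CPM in EIC 1 to 3 (log2 fold change 1.13, SE 0.24, edgeR adjusted p = 0.0658). Me1, which supplies NADPH for fatty acid synthesis, had 123, 108 and 110.3 CPM in 16IC 1 to 3, against 76.0, 73.6 and 70.4 CPM in EIC 1 to 3. Abcg1, which exports cholesterol, had 0.120, 1.28 and 5.06 CPM in 16IC 1 to 3, against 32.8, 34.2 and 94.7 CPM in EIC 1 to 3, and did not pass the test (edgeR adjusted p = 0.0935). The 5 efflux genes did not go 1 way: 1 had every 16IC line above every EIC line and 1, Abcg1, had every 16IC line below, with a median log2 fold change of -0.003. The 5 tested genes of the sterol and prenyl list had a median log2 fold change of 0.999. Of them 1 was higher at an unadjusted p under 0.05, where 12.6% of all tested genes were. For 0 of these 5 did every 16IC line lie above every EIC line, as for 17.2% of all tested genes.

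The 9 epithelial markers summed to 12263, 12283 and 1836 CPM in 16IC 1 to 3, against 3741, 2613 and 3427 CPM in EIC 1 to 3. The 7 mesenchymal markers summed to 241, 332 and 3976 CPM in 16IC 1 to 3, against 4554, 9171 and 5373 CPM in EIC 1 to 3. The 10 proliferation genes summed to 1706, 1154 and 384 CPM in 16IC 1 to 3, against 1565, 1901 and 1134 CPM in EIC 1 to 3. So 16IC 3, intermediate in the sterol level, was the lowest line in epithelial and proliferation sums. In the mesenchymal sum it lay nearer to EIC 1 and EIC 3 than to 16IC 1 and 16IC 2. Sums weigh abundant genes most. By the median of centred log2 CPM the epithelial level was 1.94, 1.87 and -0.8 in 16IC 1 to 3. In EIC 1 to 3 it was -0.35, -2.25 and -1.34, so 16IC 3 was not the lowest. In the mesenchymal list 16IC 3 lay nearer to the EIC mean for Vim, Zeb1, Zeb2 and Fn1. It lay nearer to 16IC 1 and 16IC 2 for Sparc and Twist1, and was the highest line for Cdh2. Of 7 adipocyte markers 3 were in the table, and they summed to at most 2.66 CPM in 16IC and 44.3 CPM in EIC, with Cidec at 0 in every 16IC line and at most 0.114 CPM in EIC. The others were Fabp4, at 22.1, 0.241 and 42.1 CPM in EIC 1 to 3, and Pparg, at most 4.33 CPM in any line. Of 6 leukocyte markers 3 were in the table, and they summed to 7.77 to 19.1 CPM in 16IC and 14.4 to 47.7 CPM in EIC. The 5 endothelial markers summed to at most 1.36 CPM in 16IC and 4.16 CPM in EIC. The defining leukocyte gene Ptprc and endothelial genes Pecam1 and Cdh5 were at most 0.306 CPM in any line. Other genes of these lists were higher. Cd68 made up nearly all of the leukocyte sum, with 9.76, 7.40 and 19.0 CPM in 16IC 1 to 3, against 17.5, 14.3 and 47.6 CPM in EIC 1 to 3. Kdr of the endothelial list reached 3.76 CPM in EIC 1. The part of these marker differences in the sterol values was not tested, and in bulk RNA fewer cells of a kind and less RNA per cell cannot be told apart.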

How the data were processed

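Total RNA of 6 lines was sequenced, with libraries made by the NEBNext Ultra II kit. Builds GRCm38 and mm10 and the tools STAR, HTSeq, Trimmomatic, limma and edgeR are named, per the submitters' processing notes; no source here gives versions, settings or strand. The deposited table holds the authors' raw counts per gene and line, their FPKM, and their log2 fold change with an adjusted p-value; the tool behind that comparison is not stated, though 99.98% of the log2 values lay within 0.01 of a DESeq2 run on the counts.

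Counts were filtered with edgeR's filterByExpr by group (minimum count 10), scaled with TMM and compared, 16IC over EIC, by the quasi-likelihood test of edgeR 4.0.16 in R 4.3.3, adjusting by Benjamini-Hochberg over 13698 genes, with no block. All 32 members passed the filter. The SE is the absolute log2 fold change over the root of the F statistic. Branch levels used log2 CPM with a prior count of 2. Alternatives were DESeq2 1.42.0, limma-voom (limma 3.58.1), other scaling factors and filters, a robust fit, leaving out each line, and averaging 16IC 1 with 16IC 2. That pair was the closest (mean chi-square 19.2 per gene, against 50.5 to 276 for the other pairs within a group). It was counted as separate lines by its labels alone, and the counts do not show whether the lines are independent. On simulated counts the fit returned the fold changes put in. The adjusted test called the altered genes only where the spread between lines was set low, and none at the spread estimated from these lines. That simulation altered few genes, whereas 3110 had an unadjusted p under 0.05 here and 335 were called. The adjustment was thus harsher there, and the simulation does not measure the power in these data. A member without a call may still differ. P-values measure the spread between these 6 lines, which nothing in the labels ties to separate animals.

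The members, lists and tests were chosen with earlier results of these data known. All members were named; of the further pathway genes those called and up to 6 of smallest p could be named.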

Additional observations from a re-analysis of the deposited data

How the results depend on the processing

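Over all genes the edgeR call count of 335 became 223 with no filter on low counts, 2041 with DESeq2, 0 with 16IC 1 and 16IC 2 averaged (2257 at an unadjusted p under 0.05), and 0 to 1913 when single lines were left out (0 without 16IC 2, EIC 1 or EIC 3, with 2251 to 2627 at an unadjusted p under 0.05, 5 without 16IC 1 and 1913 without 16IC 3). The member count of 0 became 13 with DESeq2 and 0 to 17 when single lines were left out, and stayed 0 with the other scalings, filters, limma-voom, the robust fit and the averaged pair. Of the further pathway genes 1 of 53 was called. With a filter of 1 CPM in 3 libraries 2 of 52 were, where 367 of all 12859 tested genes were. DESeq2 called 10 of 53, where it called 6.89% of all genes with an adjusted p higher and 5.94% lower. Without 16IC 3 the count was 13 of 53, where 6.60% of all tested genes were called higher and 6.82% lower. It was 0 with 16IC 1 and 16IC 2 averaged or without 16IC 1, 16IC 2, EIC 1 or EIC 3. The branch difference, 16IC minus EIC, was 1.16 and ranged from 1.15 to 1.22 over other scalings, summaries and branch memberships, and from 0.567 without EIC 3 to 1.60 without EIC 2. Leaving out a line moved the log2 fold change by over 1.5 times in 1 of 17 sterol genes (Ebp), 5 of 9 fatty acid genes (Acly, Acss2, Elovl6, Elovl5, Lpin1) and 3 of 6 regulators (Scap, Insig2, Stard4). Acly ran from 0.04 without EIC 2 to 0.53 without 16IC 3, and Insig2 from -0.35 without 16IC 3 to -0.07 without 16IC 1. Over the refits of single members 16 values turned sign, all in Ebp, Scap, Acss2 and Stard4. Ebp was -0.001 with DESeq2 factors, -0.033 with no filter, -0.024 with DESeq2 and -0.200 to 0.209 with lines left out. Scap was 0.030 with upper-quartile factors, 0.053 with limma-voom and -0.263 to 0.384 with lines left out. Acss2 was -0.034 with no filter, -0.537 with limma-voom, -0.010 with DESeq2 and -1.479 to 0.464 with lines left out, and Stard4 was -0.001 to 1.21 with lines left out. No paired analysis was possible because the replicate numbers follow the order of deposit and pair no line of 16IC with a line of EIC. Depth limits Fdps and Tm7sf2 most, whose lowest counts in a line were 16 and 54, while every other sterol gene had at least 103. The cause of the differences between settings was not tested.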
